A study of Mus musculus with 8 samples.

Results

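The genes described here are 10 mouse genes used as markers of trophoblast, Cdx2, Elf5, Eomes, Tfap2c, Hand1, Gata2, Gata3, Krt8, Krt18 and Esx1, taken by name from the 43309 genes of the count table. They were read in all 8 libraries made directly from lysed mouse embryonic stem cells (mESCs) of the J1 (129SV) line with the SMARTer Ultra Low RNA kit, which amplifies full-length cDNA by PCR before library construction. 2 libraries came from each of 4 groups: Zbtb24 wild type (WT, 2lox/+, 1 floxed and 1 intact allele) and Zbtb24 knockout (KO, 1lox/1lox, both alleles recombined), each at 1000 cells (about 10 ng RNA, 10 PCR cycles) and at 100 cells (about 1 ng RNA, 18 PCR cycles). All cells were grown in serum medium on gelatin without feeder cells. The labels call the replicates separate clones but do not say which clone gave which library, so the p-values measure the spread between these libraries only.

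Trophoblast is the first lineage set apart from the embryo proper, and it forms the trophectoderm of the blastocyst and later the placenta. ES cells descend from the inner cell mass and rarely enter this lineage. DNA methylation is known to help keep some of its genes, Elf5 among them, silent in ES cells, while Tfap2c, Eomes and the simple-epithelium keratins can be transcribed outside trophoblast as well. ZBTB24 is a zinc finger protein whose loss causes ICF syndrome, a disorder with altered DNA methylation at repeats.

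The start sites of these genes differed in their content of CpG, the dinucleotide that carries DNA methylation. RefSeq start sites (GRCm38.p6) were found for 8 of the 10 genes, 10 promoters in all, leaving Tfap2c and Hand1 without one. In the 250 bases before the start, Krt8 held 3 CpG and Krt18 held 12. The counts were 13 for Cdx2, 8 for Eomes, 19 for Gata3, 22 and 24 for the 2 starts of Gata2, and 24 for Esx1. Elf5 has 2 listed starts, with 2 and 8 CpG. All 250 bases lay within annotated exons for Gata3, the second start of Gata2 and the first start of Elf5. For Krt8 only 110 of them lay outside. Over all 32851 promoters of that length the median was 6 and the quartiles were 2 and 16. Below are 4 of these promoters, shown because they cover a keratin pair that was transcribed in every library and 2 regulators that were barely read. Each is the stretch of at most 150 bases nearest the start that lies in no annotated exon, 5′ to 3′ on the strand of the gene, with every CpG in capitals. The second listed start is shown for Elf5.
Krt8 (chr15:102004483-102004592, minus strand): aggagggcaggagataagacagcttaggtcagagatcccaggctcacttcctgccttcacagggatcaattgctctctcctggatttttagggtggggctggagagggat
Krt18 (chr15:102028030-102028179, plus strand): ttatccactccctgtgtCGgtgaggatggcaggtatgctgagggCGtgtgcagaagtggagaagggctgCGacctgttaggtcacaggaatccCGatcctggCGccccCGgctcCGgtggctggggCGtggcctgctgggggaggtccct
Elf5 (chr2:103423912-103424061, plus strand): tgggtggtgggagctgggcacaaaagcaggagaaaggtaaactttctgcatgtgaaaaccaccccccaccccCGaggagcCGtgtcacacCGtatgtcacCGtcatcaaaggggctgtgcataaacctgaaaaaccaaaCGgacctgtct
Cdx2 (chr5:147307271-147307420, minus strand): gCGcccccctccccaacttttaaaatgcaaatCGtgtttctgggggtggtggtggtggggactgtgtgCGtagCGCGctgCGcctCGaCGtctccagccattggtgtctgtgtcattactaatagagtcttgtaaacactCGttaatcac
The stretch of Krt8 held no CpG, and those of Krt18, Elf5 and Cdx2 held 8, 5 and 9. The motif GCCNNNGGC, the consensus of the AP-2 factors to which the Tfap2c product belongs (it reads the same on both strands), occurred within the 250 bases of 4 of the 10 promoters, 3 times in Gata3 and once each in Cdx2, Krt18 and the second start of Gata2. The matches of Gata3 and of the second start of Gata2 lay within annotated exons. The motif occurred in 13.7% of all promoters. No methylation was measured in these cells, and a match is only a description of the letters.

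The count of the targeted gene was higher, not lower, in the libraries labelled KO. Zbtb24 was at 14.1 and 16.5 cpm (the count relative to the library total, scaled by the trimmed mean of M-values) in the WT libraries at 1000 cells and at 40.9 and 37.7 in those labelled KO. At 100 cells the values were 19.5 and 20.3 in WT and 39.7 and 37.3 in KO. The KO libraries were therefore higher at both inputs (log2 ratio 1.37 ± 0.112 SE, adjusted p = 4.33e-11, and 0.91 ± 0.132, adjusted p = 0.00111; edgeR). A count over the whole gene cannot show whether a segment of the transcript is missing, so KO and WT below name libraries by their labels. Total counts ran from 9666985 to 16686525, and 3 counts, the limit that a count of 0 allows, correspond to 0.180 to 0.310 cpm. Both KO libraries at 100 cells stood apart: 8 of 9 neural and glial markers were called higher there than in WT at 100 cells, beside 17.6% of all genes tested. Mbp, a myelin protein, was at 106 and 103 cpm against 1.16 to 2.64 in the other 6 libraries. The summed level of that list was 682 and 696 cpm there and 403 to 506 elsewhere, where Stmn2 made up most of it. The part of this in the trophoblast results at 100 cells was not tested, and the values at 1000 cells are those without these libraries.

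The cells read as ES cells. The 9 ES cell markers summed to 3368 to 4278 cpm, and the 10 trophoblast genes to 54.9 to 102 cpm. The largest part of each sum came from a single gene, Tdgf1 at 1549 to 1957 cpm and Tfap2c at 28.2 to 75.2 cpm. In a bulk library a lower sum from fewer cells of a type cannot be told apart from less RNA per cell. Of the 10 genes, 7 reached 10 counts in some library and could be tested; Gata3 and Hand1 passed through WT libraries alone, Hand1 through a single one with 11 counts, so a call of these 2 genes as lower in KO rests in part on the values that admitted them. Cdx2, Elf5 and Esx1 did not pass.

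Divided by exon length, the levels spanned about 3 orders of magnitude. Tfap2c had the highest mean over the 8 libraries, 13.8 cpm per kb (range 7.66 to 20.4), above 79.1% of the 16697 genes tested that have a length. Krt18 followed at 8.01 cpm per kb (4.91 to 15.5) and Krt8 at 3.42 (2.17 to 6.78), while Eomes was at 1.35 (1.05 to 1.87). Krt8 and Eomes were the only neighbours in this order whose ranges did not overlap. The other 6 genes had mean levels of 0.249 cpm per kb or less, in the order Gata3, Hand1, Gata2, Esx1, Elf5 and Cdx2. Elf5 averaged 0.0337 and Cdx2 0.0138 cpm per kb.

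**Figure D1:**
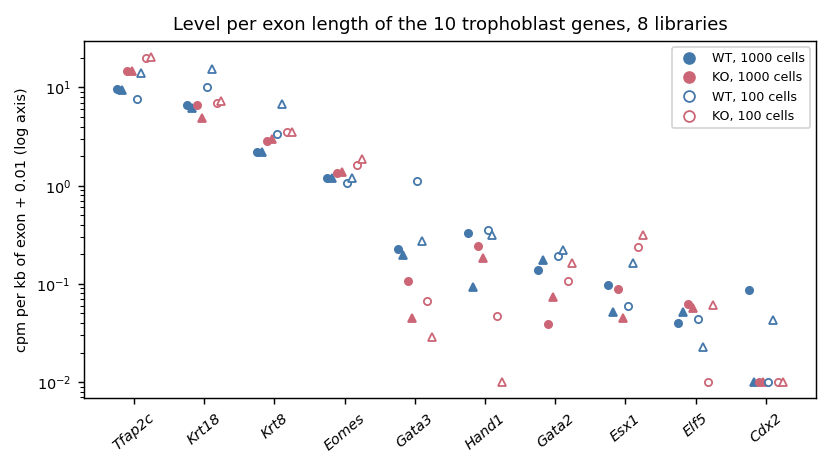
Level of each of the 10 genes in each library, in cpm per kb of exon plus 0.01 on a log axis; colour gives the genotype label, filled points 1000 cells and open points 100 cells, circles replicate 1 and triangles replicate 2. Tfap2c, Krt18, Krt8 and Eomes lie above 1 cpm per kb in every library, and the 6 other genes have means of 0.249 or less, with libraries at 0 for Hand1, Elf5 and Cdx2.

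Cdx2, Elf5 and Esx1 were at or near the limit of detection. Cdx2, a homeobox factor needed to keep the trophectoderm identity (chromosome 5, 147300805 to 147307270, GRCm38, minus strand), gave 3 counts in WT replicate 1 at 1000 cells, 1 in WT replicate 2 at 100 cells and none in the other 6 libraries. None of the 4 KO libraries held a read. At the floor of 3 counts no difference could be detected, and no fold is given. Elf5, an ETS factor of trophoblast stem cells (chromosome 2, 103411688 to 103450989, plus strand), gave 3 and 3 counts in WT and 4 and 4 in KO at 1000 cells, and 2 and 1 in WT and 0 and 4 in KO at 100 cells. The KO to WT ratio of its summed counts was 1.44 at 1000 cells (95% exact interval 0.438 to 5.03, counting error only) and 1.17 at 100 cells (0.198 to 7.99). Both intervals include 1. At 1000 cells the interval leaves room for a rise of several fold but not for a fall of that size, and at 100 cells for either. Esx1, an X-linked homeobox gene of the placenta (137115397 to 137122083, minus strand), had 1 to 4 counts in every library but the KO libraries at 100 cells, which had 6 and 8. Its ratio of summed counts there was 2.46 (0.836 to 8.71; 14 counts against 5), and at 1000 cells 0.810 (0.119 to 4.79; 3 against 4).

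Tfap2c was the member with the clearest difference between genotypes. Tfap2c encodes AP-2 gamma, a factor that acts early in trophectoderm and is also present in germ cells and in naive pluripotent cells (chromosome 2, 172549593 to 172558622, plus strand). At 1000 cells it was at 35.4 and 34.7 cpm in WT and at 53.6 and 53.7 cpm in KO. With 100 cells the level was 28.2 and 52.1 cpm in WT and 73.9 and 75.2 cpm in KO. Every KO library lay above every WT library, as in 14.1% of all genes tested. At 100 cells the WT replicates were themselves 1.85-fold apart. The KO libraries were 1.53-fold higher at 1000 cells (log2 ratio 0.61 ± 0.088 SE, n = 2 per genotype, adjusted p = 1.55e-06) and 1.79-fold higher at 100 cells (0.84 ± 0.220, adjusted p = 0.0167). Without WT replicate 1 at 100 cells the log2 ratio was 0.48, and without WT replicate 2 it was 1.36, with the call kept in each case (adjusted p = 3.51e-06 and 3.09e-16). It was the only one of the 7 genes called at 1000 cells. There 41.5% of all genes tested were called, 20.9% higher and 20.6% lower in KO. Among the 7, Gata2, Gata3 and Hand1 had at most 15 counts per library at 1000 cells, with SEs of 0.71 to 0.76. With so few genes and counts, 1 call cannot be told apart from that share.

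**Figure D2:**
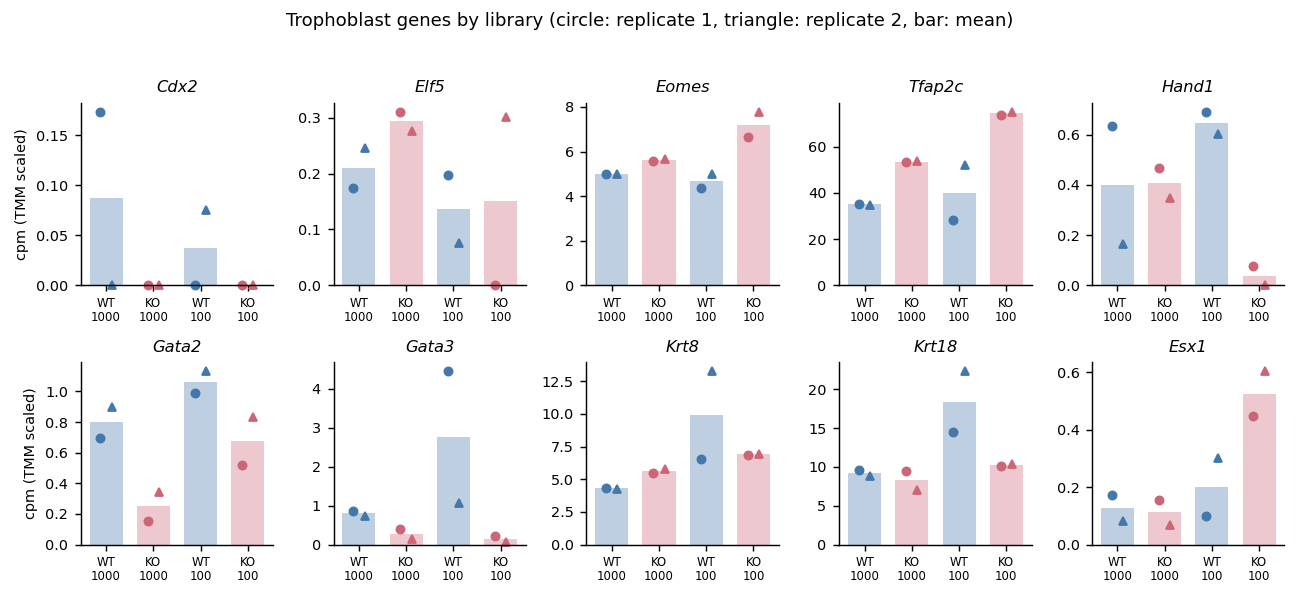
Cpm of each of the 10 trophoblast genes in the 4 groups (genotype label and number of cells); bars are means of 2 libraries, circles replicate 1 and triangles replicate 2, and each panel has its own axis from 0. Tfap2c is higher in every KO library than in any WT library and Gata3 is lower, orders that 14.1% and 13.9% of all genes tested showed. The WT replicates at 100 cells lie far apart for Tfap2c, Gata3, Krt8 and Krt18.

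Eomes, a T-box factor of trophoblast stem cells and, later, of the primitive streak (chromosome 9, 118478212 to 118486132, plus strand), showed the same order with a smaller size. It was at 4.98 and 4.99 cpm in WT and 5.59 and 5.68 in KO at 1000 cells. At 100 cells the values were 4.35 and 4.98 in WT and 6.64 and 7.78 in KO, so again all 4 KO libraries lay above all 4 WT libraries. Across all genes tested 14.1% showed that order and 13.9% its opposite. Eomes did not pass the test at either input (log2 ratio 0.18 ± 0.205, adjusted p = 0.523, and 0.58 ± 0.232, adjusted p = 0.0811). At 100 cells it did without WT replicate 2 (0.69, adjusted p = 0.0164) and in 1 fit of all 8 libraries (0.62, adjusted p = 0.0245). Of 8 primitive streak and mesoderm markers, none had over 2.04 cpm in any library.

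The GATA factors and Hand1 were read at few counts (at most 45 in any library). GATA2 and GATA3 drive trophoblast genes and are also needed in other lineages, blood and T cells among them, and HAND1 directs the formation of trophoblast giant cells. Gata3 (chromosome 2, 9857078 to 9890034, minus strand) gave 15 and 9 counts in WT and 5 and 2 in KO at 1000 cells. At 100 cells it gave 45 and 14 counts in WT and 3 and 1 in KO. In cpm the WT replicates at 100 cells were at 4.45 and 1.06, and all 4 KO libraries, at 0.0756 to 0.389, lay below all 4 WT libraries. Across all genes tested 13.9% showed that order, and Gata3 was admitted to the tests through its WT values alone. The ratio of summed counts, KO over WT, was 0.315 at 1000 cells (95% exact interval 0.115 to 0.754) and 0.0595 at 100 cells (0.0157 to 0.161). By edgeR it was called lower in KO at 100 cells (log2 ratio -4.11 ± 0.911, adjusted p = 0.00813) and missed the threshold at 1000 cells (-1.62 ± 0.710, adjusted p = 0.0684). Leaving out WT replicate 1 at 100 cells moved the value to -2.77 (adjusted p = 0.00244), and the call also held without each of the other 3 libraries at 100 cells. Exons of Gata3 overlap 9230102O04Rik over 77 bases on the same strand and Gm13256 over 155 bases on the other, and both neighbours had 0 counts in all 8 libraries.

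Gata2 (chromosome 6, 88193891 to 88207032, plus strand) gave 12 and 11 counts in WT and 2 and 5 in KO at 1000 cells, and 10 and 15 in WT and 7 and 11 in KO at 100 cells. Its ratio of summed counts was 0.329 (0.119 to 0.791) at 1000 cells and 0.632 (0.325 to 1.20) at 100 cells. Neither comparison passed the test (log2 ratio -1.59 ± 0.714, adjusted p = 0.0752, and -0.69 ± 0.563, adjusted p = 0.369). Among all 8 libraries the genotypes overlapped.

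Hand1 (chromosome 11, 57828705 to 57832818, minus strand) gave 11 and 2 counts in WT and 6 and 5 in KO at 1000 cells, where the replicates of WT alone covered the whole range. At 100 cells it gave 7 and 8 counts in WT and 1 and 0 in KO. The ratio of summed counts at 100 cells was 0.0585 (0.00139 to 0.380; 1 count against 15), and at 1000 cells 0.914 (0.371 to 2.21). Hand1 was called lower in KO at 100 cells (adjusted p = 0.0294), a call that was lost without either KO library (adjusted p = 0.108 without replicate 1 and 0.263 without replicate 2), by DESeq2 (adjusted p = 0.12) and with no filter on low counts (adjusted p = 0.0546). At 1000 cells its log2 ratio was -0.09 ± 0.764 (adjusted p = 0.944) and turned to 1.25 without WT replicate 1.

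Krt8 and Krt18 form the paired type II and type I filaments of simple epithelia and are among the first keratins of the trophectoderm. They lie next to each other on chromosome 15 (Krt8 at 101996698 to 102004482, minus strand, and Krt18 at 102028180 to 102032027, plus strand). Krt18 was at 9.55 and 8.84 cpm in WT and 9.48 and 7.06 in KO at 1000 cells, where the genotypes overlapped. With 100 cells the level was 14.4 and 22.3 cpm in WT and at 10.1 and 10.4 in KO. The WT libraries at 100 cells were thus the highest of all 8. Krt18 was 1.87-fold lower in KO at 100 cells (log2 ratio -0.90 ± 0.215, adjusted p = 0.0113), and the call was lost without KO replicate 1 (adjusted p = 0.0785) or KO replicate 2 (adjusted p = 0.0627). The size was -1.16 without WT replicate 1 and -0.54 without WT replicate 2. At 1000 cells the log2 ratio was -0.16 ± 0.174 (adjusted p = 0.484), and 0.04 without KO replicate 2.

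Krt8 was at 4.34 and 4.26 cpm in WT and at 5.52 and 5.82 in KO at 1000 cells. With 100 cells the level was 6.53 and 13.3 cpm in WT and at 6.87 and 6.95 in KO, which put both KO libraries between the WT replicates. It passed the test at neither input (log2 ratio 0.40 ± 0.211, adjusted p = 0.136, and -0.58 ± 0.298, adjusted p = 0.159). At 100 cells the value was -0.98 without WT replicate 1 (adjusted p = 3.66e-06) and 0.04 without WT replicate 2 (adjusted p = 0.88), so that the sign rested on 1 library. Of the 50-base windows in Krt8 exons 29.7% recur in the pseudogene Krt8-ps or in Gm36026, which overlaps Krt8 on the other strand. Neither was found by name among the genes counted. Fragments that mapped to several places were dropped, while those over Gm36026 were dropped only if the counting annotation held that gene. The count of Krt8 is therefore uncertain.

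**Figure D3:**
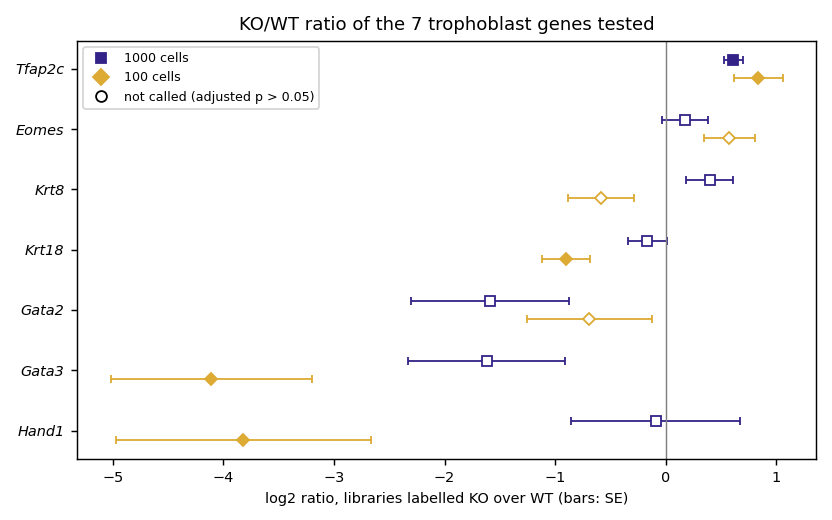
Log2 ratio of KO over WT with its SE for the 7 trophoblast genes tested, at 1000 cells (squares) and 100 cells (diamonds); filled symbols passed an adjusted p of 0.05. Only Tfap2c is filled at 1000 cells, and Tfap2c, Krt18, Gata3 and Hand1 are filled at 100 cells, with the last 3 left of 0.

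At 100 cells 4 of the 7 genes were thus called, 1 higher and 3 lower in KO, beside 34.2% of all genes (17.6% higher, 16.6% lower). The count was 2, Tfap2c and Gata3, without either KO library. The median log2 ratio of the 7 was -0.09 at 1000 cells and -0.69 at 100 cells, beside 0 over all genes tested (-0.001 at each input). Gata3 and Hand1 passed the filter only through WT libraries. The 3 lower calls and the medians therefore rest in part on the values that admitted these genes. Whether the KO to WT ratio differed between the inputs was tested in a fit of all 8 libraries. None of the 7 genes passed by edgeR, where 16.3% of all genes did, and none passed by DESeq2. With no adjustment 3 were under 0.05, Hand1, Krt8 and Krt18 (adjusted p = 0.0943, 0.102 and 0.114, edgeR). Without WT replicate 1 at 100 cells 2 were called (Krt8 and Krt18), and 2 others without WT replicate 2 (Tfap2c and Gata3). The different calls at 1000 and 100 cells are therefore not shown to be a difference between inputs.

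Few of these genes passed the test between inputs. The number of cells and the number of PCR cycles changed together and cannot be told apart. In WT only Krt18 passed, 1.98-fold higher at 100 than at 1000 cells (log2 ratio 0.99 ± 0.213, adjusted p = 0.0433), beside 0.827% of all genes called and 0.149% called higher. That call was lost without WT replicate 1 at 1000 cells (adjusted p = 0.315) or replicate 2 (adjusted p = 0.92). Krt8 was 2.29-fold higher but missed the threshold (1.20 ± 0.298, adjusted p = 0.0746), and Gata3 had a log2 ratio of 1.71 ± 0.611 (adjusted p = 0.243) that was 0.35 without WT replicate 1 at 100 cells. In KO, where 52.1% of all genes were called (27.3% higher, 24.8% lower), Tfap2c was 1.39-fold higher at 100 cells (0.48 ± 0.071, adjusted p = 9.74e-07). Hand1 was called lower (adjusted p = 0.0313) on 1 count against 11, a call lost without KO replicate 1 at 1000 cells (adjusted p = 0.0556) or KO replicate 2 at 100 cells (adjusted p = 0.2). The remaining 5 tested genes did not pass in KO, with log2 ratios from -0.74 for Gata3 to 1.37 for Gata2, while Krt18 was called without KO replicate 1 at 1000 cells (0.54, adjusted p = 0.00932). Without WT replicate 1 at 100 cells the WT calls were Tfap2c, Krt8 and Krt18, and without replicate 2 they were Gata3 and Krt18.

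The WT replicates at 100 cells differed from each other more than those of any other group. Over 10044 genes averaging 5 cpm or more, the SD of the log2 ratio of replicate 2 over replicate 1 was 0.355 there, and 0.154 to 0.190 in the other 3 groups. Krt8 differed by 1.02 on this scale, Krt18 by 0.63, Tfap2c by 0.88 and Eomes by 0.19. Krt19, from the epithelial list below, differed by 1.75, more than 99.96% of the 10044 genes, and by -0.30 to 0.05 in the other 3 groups. Krt7 and Gata3, both under 5 cpm on average, differed by 1.35 and -2.04, but they also differed in other groups, Krt7 by -1.70 in WT at 1000 cells and Gata3 by -1.30 and -1.20 in KO at 1000 and 100 cells. In the KO libraries at 100 cells the replicates differed by 0.02 for Krt8, 0.04 for Krt18 and 0.02 for Tfap2c.

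**Figure D4:**
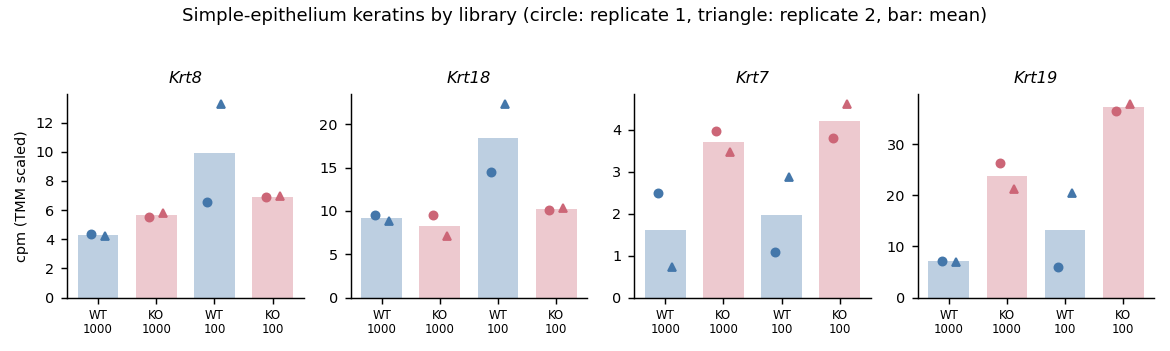
Cpm of 4 keratins of simple epithelia in the 4 groups; bars are means of 2 libraries, circles replicate 1 and triangles replicate 2, and each axis starts at 0. Replicate 2 of WT at 100 cells lies above replicate 1 for all 4 keratins, and Krt19 is highest in the KO libraries.

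Other epithelial genes of the trophectoderm split between the directions. Krt19, a type I keratin, was at 7.12 and 7.04 cpm in WT and 26.3 and 21.3 in KO at 1000 cells, and at 6.03 and 20.5 in WT and 36.6 and 37.9 in KO at 100 cells. It was 3.35-fold higher in KO at 1000 cells (log2 ratio 1.74 ± 0.144, adjusted p = 5.62e-11) and 2.66-fold higher at 100 cells (1.41 ± 0.373, adjusted p = 0.0172). Leaving out WT replicate 1 at 100 cells gave 0.83, and leaving out replicate 2 gave 2.58. By DESeq2 the difference at 100 cells was not called (1.46, adjusted p = 0.177). Atp1b1, a sodium pump subunit that helps to form the blastocyst cavity, was higher in KO at both inputs (0.52 ± 0.092 and 1.26 ± 0.129). The tight junction genes Cldn4 (-0.82 ± 0.128 and -1.12 ± 0.300) and Cldn6 (-0.85 ± 0.118 and -0.98 ± 0.145) were lower at both. Cldn4 at 100 cells was -0.55 without WT replicate 1 and -1.53 without WT replicate 2. Of the 10 tested genes of this list of 11, 3 were called higher and 4 lower at 1000 cells, and 2 higher and 4 lower at 100 cells. Over all genes 41.5% and 34.2% were called. Cdh1, the epithelial cadherin that ES cells also use, passed at neither (0.00 ± 0.066 and -0.39 ± 0.151).

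Among 16 other regulators and signals of trophoblast, 14 were tested. Bmp4, a signal that promotes trophoblast differentiation, was at 30.2 and 29.9 cpm in WT and 9.71 and 9.21 in KO at 1000 cells, and at 28.2 and 28.5 in WT and 9.7 and 9.82 in KO at 100 cells. The groups were far apart and the inputs alike, with a 3.18-fold lower level in KO at 1000 cells (log2 ratio -1.67 ± 0.123, adjusted p = 5.57e-12) and 2.99-fold at 100 cells (-1.58 ± 0.15, adjusted p = 0.000152). Wwtr1, which encodes the Hippo pathway coactivator TAZ, was higher in KO at both inputs (1.02 ± 0.107, adjusted p = 6.86e-09, and 0.57 ± 0.168, adjusted p = 0.0261). The call at 100 cells was lost without KO replicate 1 (adjusted p = 0.133) or KO replicate 2 (adjusted p = 0.281). In all, 4 of the 14 were called higher and 2 lower at 1000 cells, and 2 higher and 5 lower at 100 cells. The 6 calls at 1000 cells are close to the 41.5% of all genes called there, and at 100 cells that share was 34.2%. Ovol2, a zinc finger repressor of epithelial cells, was called lower at both inputs (-1.73 ± 0.270 and -2.16 ± 0.390); 359 bases of its exons overlap a gene on the other strand. Msx2, a homeobox gene, was called lower at 100 cells on 1 count in KO against 35 in WT (ratio 0.0251, 95% exact interval 0.000617 to 0.149). Tead4, the partner of YAP at the start of the lineage, passed at neither input (0.07 ± 0.223 and 0.54 ± 0.295). Ovol2 and Msx2 had means under 10 cpm and were chosen after their values were seen, as was Tead4.

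**Figure D5:**
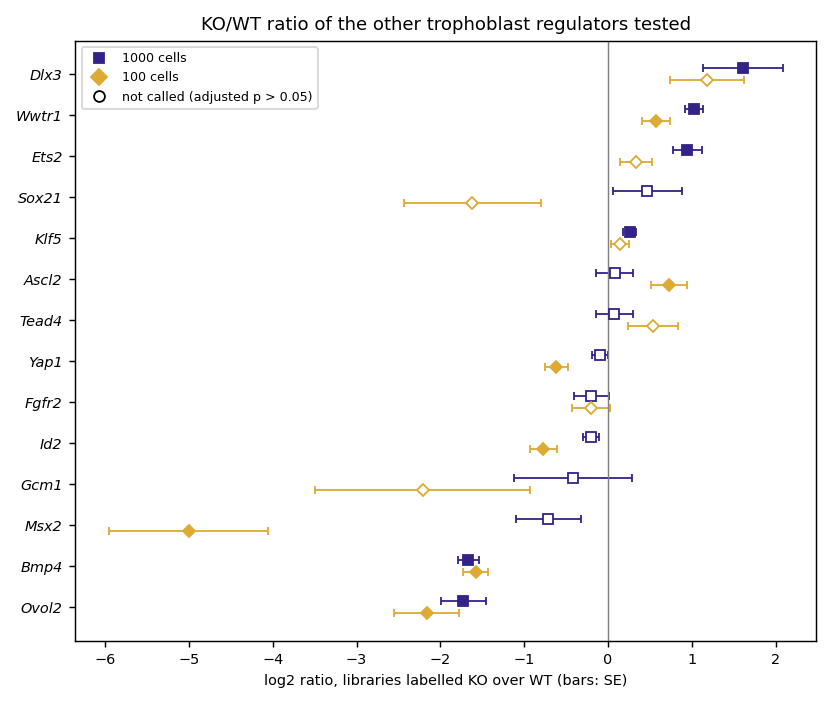
Log2 ratio of KO over WT with its SE for the 14 other trophoblast regulators tested, at 1000 cells (squares) and 100 cells (diamonds); filled symbols passed an adjusted p of 0.05. Bmp4 and Ovol2 are filled left of 0 at both inputs and Wwtr1 right of 0 at both, and most other genes are filled at 1 input or at none.

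The 10 genes of placental products ranged from no count to a high level. Phlda2, an imprinted gene that limits placental growth, was at 71.0 to 85.3 cpm in all 8 libraries and made up most of the list's sum of 80.4 to 111 cpm, and it missed the threshold at 1000 cells (0.10 ± 0.076, adjusted p = 0.342) and at 100 cells (0.04 ± 0.126, adjusted p = 0.815). Prl3d1, Prl3b1 and Prl2c2, hormones of giant cells, had no count in any library, and Tpbpa and Ctsq had at most 1 and 2 counts. Of the 5 placental genes tested, none was called higher, 1 was called lower at 1000 cells and 3 at 100 cells, beside 41.5% and 34.2% of all genes called in either direction. Synb, a retroviral envelope gene of the fused trophoblast layer, was called lower at both inputs (-0.77 ± 0.205, adjusted p = 0.00306, and -1.44 ± 0.264, adjusted p = 0.00332). At 100 cells Peg10 (-1.66 ± 0.217) and Plac1 were called lower as well, Plac1 having passed the filter only through those WT libraries. Plac1, an X-linked gene of the placenta, gave 14 and 42 counts in WT and 0 and 0 in KO at 100 cells, at least 21.3-fold lower with KO set at the floor of 3 counts over the group. The exact 95% interval of the KO to WT ratio there, which also counts the error of the WT reads, ran from 0 to 0.0597. At 1000 cells Plac1 gave 4 and 2 counts in WT and 1 and 1 in KO. Phlda2, Synb, Peg10 and Plac1 were also chosen after their values were seen.

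Tfap2c and Krt18 had a high enough level for a search of similar profiles. Among 8366 genes averaging 10 cpm or more, the closest to Tfap2c over the 8 libraries by root mean square difference of centred log2(cpm + 1) were Clic1 (0.0896), Smyd3 (0.121) and Csnk1d (0.123). For Krt18 they were Acadvl (0.194), Tbl3 (0.202) and Ints1 (0.203). Krt8, measured the same way, lay at 0.255 from Krt18.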

How the data were processed

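The deposited table holds raw counts per gene for 8 libraries, which the authors made with HTSeq from reads mapped to mm10. The submitters' processing notes name CASAVA 1.8.2, Bowtie2 2.1.0, TopHat2 2.0.10 and HTSeq 0.6.1. Counting ignored strand, and fragments that fell on several genes or places were dropped. Bases shared with another gene of the counting annotation, on either strand, therefore add nothing to a count. The overlaps given here come from a later GENCODE release than the one the paper names, and it may hold genes that the counting did not. Ensembl IDs were matched to symbols for 42425 of 43309 genes. The 10 genes and all lists were chosen with earlier results of these data known.

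Of the genes, 16816 reached 10 counts in some library and entered the tests with edgeR 4.0.16 (R 4.3.3; TMM, quasi-likelihood F test, Benjamini-Hochberg over all tested genes, threshold 0.05), with separate fits of 4 libraries per comparison and 1 fit of all 8 for the interaction. The code was tested on simulated data. SE is the size of the log2 ratio over the square root of F. Low genes also got ratios of summed counts with exact 95% intervals, which cover counting error only, since PCR copies are not independent molecules. Depth is given in the report. DESeq2 1.42.0, other scalings and filters, the edgeR exact test, the replicate number as a block, a single fit and leaving out each library were alternatives. The genes named by rule were all 10 members, Zbtb24 and, per list, up to 4 with a mean of at least 10 cpm called in the same direction at both inputs. Further genes, such as Cdh1, Krt7, Pou5f1, Mbp, Slc1a2, Tbx6, Fgf8, Col1a2 and Foxa2, fall outside this rule and were named with their values known. The lists were other trophoblast regulators, trophectoderm epithelium, placental products, and markers of ES cells, primitive endoderm, primitive streak and mesoderm, fibroblasts, and neurons and glia.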

Additional observations from a re-analysis of the deposited data

Results flagged for a closer look

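Atp1b1, the sodium pump subunit of the trophectoderm, was picked out because its KO to WT ratio differed between the inputs in a test of the difference itself. Its level was 35.4 and 32.0 cpm in WT and 47.4 and 49.6 cpm in KO at 1000 cells, and 31.7 and 27.5 cpm in WT and 76.2 and 70.3 cpm in KO at 100 cells. The interaction of genotype and input was 0.786 ± 0.156 on the log2 scale (edgeR, adjusted p = 0.00524; 16.3% of all genes passed this test). The value ran from 0.686 to 0.891 when each library was left out in turn, and it passed the threshold each time. The KO libraries at 100 cells also held the raised neural and glial markers, whose part in this value was not tested, and 575 bases of Atp1b1 exons overlap Nme7 on the other strand.

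The same test picked out 5 other genes. Pou5f1 had an interaction of 0.90 ± 0.195 (adjusted p = 0.00822), with the KO to WT ratio below 1 at 1000 cells and above 1 at 100 cells. For Nanog it was -0.50 ± 0.115 (adjusted p = 0.0112), with KO higher at both inputs. For Peg10 it was -1.33 ± 0.274 (adjusted p = 0.00635). Msx2 had -4.29 ± 1.113 (adjusted p = 0.0191), a fitted size that rests on 1 count in KO at 100 cells. Mbp, among the raised myelin genes, had 5.59 ± 0.399 (adjusted p = 2.46e-06).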

How the results depend on the processing

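The call of Tfap2c held at each input in every alternative but the one that requires a log2 ratio of at least 1. The count of trophoblast genes called, KO against WT at 1000 cells, was 1, became 0 with that size required and 2 with the edgeR exact test (Gata3 added). At 100 cells it was 4, became 2 with that size required, 2 with at least 10 counts in every library, and 2 to 5 when each library was left out. There Hand1 was lost with no filter and by DESeq2 (3 called each), and Eomes was gained with 1 fit of all 8 libraries (5 called). For 100 against 1000 cells in WT it was 1. It became 0 with that size required, with library size alone as scaling and with 10 counts in every library, 3 with no filter, 2 with the exact test, 2 with 1 fit of all 8 libraries and 0 to 3 when each library was left out. In KO it was 2, became 1 with that size required, with no filter, with 10 counts in every library, by DESeq2 and with 1 fit of all 8 libraries, and 1 to 2 when each library was left out. The interaction count was 0, became 1 with no filter (Krt8) and 0 to 2 when each library was left out. The cause of these changes was not tested, except that a stricter filter tests fewer genes and a left-out library leaves a lone sample that is assumed to vary like the other group.

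With the replicate number as a block, the count for WT rose from 1 to 2 (Krt18 and Krt8), and Hand1 at 1000 cells turned from -0.09 to 0.044. The numbers are not known to pair the libraries: the deviations of same-numbered libraries correlated at 0.15 (KO and WT, 1000 cells), 0.167 (100 cells), -0.124 (WT, both inputs) and -0.038 (KO), each over genes. With the WT numbers crossed, chosen after seeing the data, the count was also 2. The block moved no other count of called trophoblast genes.

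Of the alternative values for single genes, 789 kept their direction and their side of the threshold, 22 lost it, 25 gained it and 17 changed direction. Those that changed direction ranged, when each library was left out, as follows. KO against WT, Hand1 at 1000 cells ran from -0.65 to 1.25, Krt18 at 1000 cells from -0.38 to 0.042 and Krt8 at 100 cells from -0.98 to 0.044. For 100 against 1000 cells in WT, Tfap2c ran from -0.30 to 0.54, Wwtr1 from -0.15 to 0.29 and Krt19 from -0.21 to 1.49. In KO, Gata3 ran from -1.65 to 0.12, Zbtb24 from -0.082 to 0.039 and Cldn6 from -0.059 to 0.19. The interaction ran from -0.10 to 0.79 for Tfap2c, -0.88 to 0.88 for Krt19, -0.67 to 0.30 for Cldn4 and -0.21 to 0.018 for Cldn6. Library size alone changed the split of all genes called at 1000 cells from 3514 higher and 3465 lower to 2776 and 4290. The counts over all genes moved by over 1.5 times in several settings: with the size required they were 1634 of 6979 at 1000 cells, 2696 of 5756 at 100 cells, 29 of 139 in WT, 2717 of 8753 in KO and 1177 of 2745 for the interaction. In WT the count was 79 with library size alone, 463 with no filter and 434 with the exact test. With the replicate block it was 285 there, and with the block crossed 512. DESeq2 and 1 fit of all 8 libraries gave 212 and 676 in WT, DESeq2 gave 5641 in KO, and leaving out each library gave 2066 to 9551 at 100 cells, 6 to 2631 in WT and 727 to 5633 for the interaction.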

Other observations

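Markers of the other early lineages were low and mixed in direction. Of 9 primitive endoderm markers, which summed to 30.0 to 44.7 cpm, 7 were tested, with 1 called higher in KO at 1000 cells and 1 called higher and 1 lower at 100 cells. Foxa2 had no count in any library. The 8 primitive streak and mesoderm markers summed to 2.37 to 4.55 cpm, and of the 5 tested none was called at 1000 cells and 1 was called in each direction at 100 cells. Tbx6, called higher, passed the filter only through the KO libraries at 100 cells (16 and 27 counts). Fgf8, called lower, passed only through WT replicate 2 at 100 cells (10 counts). Both calls thus rest in part on the values that admitted these genes. Of the 8 fibroblast markers 4 were tested, with 1 called lower at 1000 cells and 1 called higher at 100 cells. The latter, Col1a2, passed the filter only through KO replicate 2 at 100 cells (16 counts), so its call rests in part on that value. The 8 fibroblast markers summed to 7.91 and 8.16 cpm in the KO libraries at 100 cells and 3.05 to 4.75 cpm in the other 6. Over all genes tested 41.5% were called at 1000 cells and 34.2% at 100 cells.

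Of the 9 ES cell markers, 5 were called higher and 2 lower in KO at 1000 cells, and 4 higher and 1 lower at 100 cells, beside 41.5% and 34.2% of all genes called. Pou5f1, which encodes OCT4, was called in opposite directions, lower in KO at 1000 cells (-0.41 ± 0.093, adjusted p = 0.000735) and higher at 100 cells (0.46 ± 0.153, adjusted p = 0.0435). Klf4, a factor of naive pluripotency, had a log2 ratio of 1.59 ± 0.072 at 1000 cells and 1.11 ± 0.136 at 100 cells, and Nanog 1.13 ± 0.057 and 0.58 ± 0.102. Zfp42, another marker of ES cells, was lower at both inputs (-0.26 ± 0.058 and -0.36 ± 0.105). All 9 neural and glial markers were called at 100 cells, 8 higher and 1 lower in KO, and 3 were called higher and 1 lower at 1000 cells. Slc1a2 passed the filter only through the KO libraries at 100 cells (395 and 304 counts, at most 5 elsewhere), so its call rests in part on those values.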
